A study of Rattus norvegicus with 4 samples.

Results

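Neutrophil granule genes encode the antimicrobial and protein-cutting contents that neutrophils, the phagocytes first to reach infected tissue, make in bone marrow and store for release. The set was taken by gene symbol from the deposited count table: 10 names were sought and 9 had a row, out of 13554 genes in the table. They were 5 genes of primary (azurophil) granules (Elane, Prtn3, Ctsg, Np4 and Defa5), 2 of secondary (specific) granules (Camp and Ngp) and 2 of the cytosol (S100a8 and S100a9). Ltf, the secondary granule gene for lactoferrin, was not analysed here. RNA was sequenced from articular cartilage, which lines the bone ends of a joint, and from xiphoid cartilage, the tip of the breastbone, with 2 libraries for each tissue. All 4 libraries came from Sprague-Dawley rats of 8 to 10 weeks, with no treatment named. The joint, the sex of the rats, and whether a library held 1 animal or several are not given in the labels, so the p-values measure only the spread between these libraries, which may be technical.

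In the marrow, granule genes are switched on in steps as a neutrophil precursor matures. Serine proteases and defensins of primary granules are transcribed in the promyelocyte, secondary granule genes in the myelocyte that follows, and the S100a8 and S100a9 transcripts are abundant through late maturation and persist in blood neutrophils, while primary granule transcripts are largely lost by then. Transcription factors of the C/EBP family, PU.1, MYB and RUNX1 drive much of this programme.

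One promoter from each stage is printed below because these genes changed together. Each run gives the 250 bases before the RefSeq transcription start on assembly GRCr8, which is not the build of the count table (rn6), 5′ to 3′ on the strand of the gene. Capitals mark every match, on either strand, to 4 short motifs: TTGCNNAA for C/EBP, GAGGAA for PU.1 and other ETS factors, TAACNG for MYB, and TGTGGT for RUNX.
Np4, primary granule, chr16:77199643-77199892, minus strand: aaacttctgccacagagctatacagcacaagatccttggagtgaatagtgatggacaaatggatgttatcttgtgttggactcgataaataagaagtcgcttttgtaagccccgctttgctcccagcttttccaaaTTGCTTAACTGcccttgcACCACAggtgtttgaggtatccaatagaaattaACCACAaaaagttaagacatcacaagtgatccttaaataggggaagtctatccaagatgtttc
Ngp, secondary granule, chr8:119272355-119272604, plus strand: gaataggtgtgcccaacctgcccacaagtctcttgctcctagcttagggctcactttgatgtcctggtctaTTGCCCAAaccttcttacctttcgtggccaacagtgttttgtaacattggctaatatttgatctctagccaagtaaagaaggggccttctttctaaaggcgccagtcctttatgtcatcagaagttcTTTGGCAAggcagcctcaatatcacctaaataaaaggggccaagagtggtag
S100a9, cytosolic, chr2:178490623-178490872, minus strand: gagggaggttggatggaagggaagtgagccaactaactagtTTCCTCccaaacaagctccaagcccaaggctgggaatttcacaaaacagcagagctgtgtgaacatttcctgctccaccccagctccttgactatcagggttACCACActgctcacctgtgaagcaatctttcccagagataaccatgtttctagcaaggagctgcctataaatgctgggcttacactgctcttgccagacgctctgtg

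Np4 held a C/EBP match that overlapped a MYB match by 3 bases, and 2 RUNX matches nearer the start. Ngp held 2 C/EBP matches, the nearer one 45 to 52 bases before the start. S100a9 held 1 PU.1 and 1 RUNX match. Promoters of 6 of the 9 genes were matched in the RefSeq table. Among these 6, the C/EBP motif was in 2 (Np4 and Ngp), the PU.1 motif in 3 (Prtn3, Ctsg and S100a9), the MYB motif in 1 (Np4) and the RUNX motif in 3 (Ctsg, Np4 and S100a9), and the Camp window held none of the 4. Over 27457 RefSeq promoters of the same length the motifs were in 9.2%, 23.2%, 20% and 14.1% respectively. A match is a string of letters and not a measured binding site.

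The libraries held 7351006 to 8434820 counts. Chondrocyte markers were high in all 4: the 14 genes of that list took 14.2% and 12.4% of articular counts and 4.17% and 3.82% of xiphoid counts, with Col2a1, Acan and Sox9 counted in each. CPM below are counts scaled to 1000000 per library after TMM, a correction for library size and composition. Changes were tested across 11202 genes with the edgeR quasi-likelihood test, and a call is an adjusted p (Benjamini-Hochberg over all genes tested) under 0.05. By that rule 49.5% of the genes tested were called: 25.0% with an articular excess and 24.5% with a xiphoid excess. In bulk RNA, fewer cells of a type and less RNA per cell cannot be told apart.

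The neutrophil granule genes were an articular signal at every stage. Together the 9 genes had 1971 and 1790 articular counts but only 11 and 1 xiphoid counts. As a share of all counts this was 0.0235% (exact binomial 95% interval 0.0225 to 0.0245) and 0.0230% (0.0219 to 0.0241) in articular cartilage. The xiphoid shares were 0.00013% (6.51e-05 to 0.000233) and 1.36e-05% (3.44e-07 to 7.58e-05). Intervals and floors here cover counting error only. The 2 articular shares lay within each other's intervals and far above both xiphoid shares. All 9 genes were higher in both articular libraries than in both xiphoid libraries, as were 35.0% of all rows in the table and 37.1% of the genes tested. The edgeR test called 8 of the 9 higher in articular cartilage, against the 25.0% of all genes tested. These 8 passed the filter on low counts through their articular libraries alone, so that count is a description and adds no support. The ninth, Prtn3, had too few counts to be tested.

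**Figure D1:**
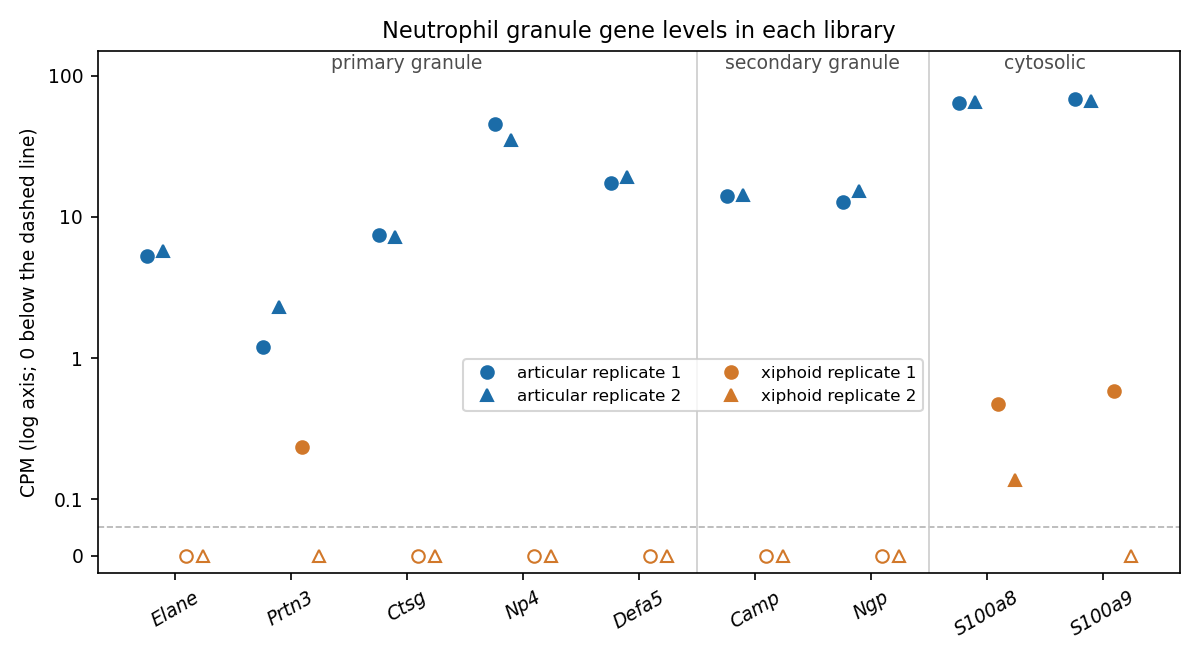
Level of each neutrophil granule gene in each library, in CPM on a log axis, with values of 0 drawn as open symbols below the dashed line. Circles are replicate 1 and triangles replicate 2, blue is articular and orange is xiphoid. Of 9 genes, 6 have no xiphoid count, and the other 3 stay below 1 CPM in xiphoid cartilage.

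Among the primary granule genes, the serine proteases had few counts. Elane (Entrez gene 299606) encodes neutrophil elastase, which cuts elastin and many other matrix proteins. It had 44 and 45 counts in articular cartilage, or 5.26 and 5.78 CPM, and none in either xiphoid library. Against the 3 counts that an absence over both xiphoid libraries still allows (0.19 CPM), Elane was at least 29.0-fold higher in articular cartilage (edgeR adjusted p = 3.11e-05). Ctsg (Entrez gene 290257), the chymotrypsin-like cathepsin G, had 62 and 56 counts, or 7.42 and 7.19 CPM, and again none in xiphoid cartilage. Its fold was at least 38.5 (edgeR adjusted p = 1.09e-05). The Ctsg row also carries a transcript assembled by the submitters' pipeline, and the share of its counts from that transcript was not tested. The 2 articular libraries differed little for both proteases.

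Prtn3 (Entrez gene 314615) encodes proteinase 3, the protease closest to elastase and the antigen of an autoimmune vasculitis. It had the fewest articular counts of the set, with 10 and 18 in articular cartilage (1.2 and 2.31 CPM) and 2 and 0 in xiphoid cartilage (0.235 and 0 CPM). The pooled ratio was 13.7 with an exact 95% counting interval of 3.46 to 119. With no filter on low counts Prtn3 was called (edgeR adjusted p = 0.00684). It also entered the fit when xiphoid replicate 2 was left out, and did not pass there (0.0703).

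The alpha-defensins were the most counted of the primary granule genes. Defensins are small cationic peptides that permeabilise microbial membranes. Np4 (Entrez gene 286958), a rat neutrophil defensin, had 380 and 271 counts in articular cartilage, or 45.5 and 34.8 CPM, and none in xiphoid cartilage, so it was at least 212-fold higher (edgeR adjusted p = 4.6e-08). Defa5 (Entrez gene 286995), described in the table as defensin alpha 5, had 145 and 149 counts, or 17.4 and 19.1 CPM, and none in xiphoid cartilage, at least 95.9-fold (edgeR adjusted p = 3.41e-07). The protein match given for Defa5 in the count table is named as specific to Paneth cells, the defensin-making cells of the gut, yet it was counted here in both articular libraries. Np4 was the more variable of the pair: there were 2.62 Np4 counts per Defa5 count in articular replicate 1 (95% interval 2.16 to 3.20) and 1.82 in replicate 2 (1.48 to 2.24). Rat alpha-defensins are a family of related genes, and their sequences were not compared here. Reads could be assigned to the wrong one, so the split between them is uncertain. Of 10 further alpha-defensin names 2 had a row. RatNP-3b, another neutrophil defensin, followed the same pattern with 110 and 118 counts against none (at least 74.4-fold, edgeR adjusted p = 9.08e-07), and Defa11 had 3 counts in one articular library.

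Both secondary granule genes were absent from the xiphoid counts. Camp (Entrez gene 316010) encodes cathelicidin, the precursor of a membrane-lytic peptide, and had 118 and 111 counts in articular cartilage, or 14.1 and 14.3 CPM. It was at least 74.7-fold higher there (edgeR adjusted p = 7.93e-07). Ngp (Entrez gene 301026), the neutrophilic granule protein, a relative of cathelicidin and cystatins, had 106 and 119 counts, or 12.7 and 15.3 CPM, and was at least 73.4-fold higher (edgeR adjusted p = 1.02e-06). The pair kept close to equal counts, with 0.898 Ngp counts per Camp count in articular replicate 1 (95% interval 0.685 to 1.18) and 1.07 in replicate 2 (0.821 to 1.40).

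The cytosolic pair held most of the counts of the set. S100a8 and S100a9 encode the 2 subunits of calprotectin, a calcium- and zinc-binding alarmin that makes up much of the neutrophil cytosol and is also made by monocytes. S100a8 (Entrez gene 116547) was at 64.5 and 65.5 CPM in articular cartilage and at 0.47 and 0.137 CPM in xiphoid cartilage, 196-fold higher (log2 fold change 7.62, SE 0.33, edgeR adjusted p = 3.72e-09). S100a9 (Entrez gene 94195) was at 67.8 and 65.6 CPM against 0.588 and 0 CPM, 202-fold higher (log2 fold change 7.66, SE 0.40, edgeR adjusted p = 1.86e-08). Both folds rest on 5 xiphoid counts per gene, 9 of the 10 from replicate 1. Without xiphoid replicate 1 the S100a8 log2 fold change was 8.74 and S100a9 had no xiphoid count left; without xiphoid replicate 2 the values were 7.08 and 6.80. There were 1.05 and 1.00 S100a9 counts per S100a8 count in the articular libraries.

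The rest of the S100 family did not share this pattern. The family has 11 further rows, of which 9 were tested. Of these, 6 had a xiphoid excess, beside 24.5% of all genes tested, and 3 did not pass. The edgeR test called 0 for articular cartilage, with 0 also at an unadjusted p under 0.05 and 0 by DESeq2 and limma-voom, but 1 under the replicate block and without articular replicate 2 or xiphoid replicate 2. S100a4, a calcium-binding protein of motile and fibroblastic cells, had a log2 fold change of -2.61 (edgeR adjusted p = 1.65e-06), and S100b, a marker of chondrocytes and Schwann cells, one of -1.98 (edgeR adjusted p = 6.75e-07).

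The stages kept similar proportions in the 2 articular libraries. Primary granule genes were 32.5% and 30.1% of the counts of the set, secondary granule genes 11.4% and 12.9%, and the cytosolic pair 56.1% and 57%. There were 2.86 primary granule counts per secondary granule count in articular replicate 1 (95% interval 2.45 to 3.35) and 2.34 in replicate 2 (2.01 to 2.75), intervals that overlap. In xiphoid cartilage the cytosolic pair gave 10 of the 12 counts of the set, or 83.3% (exact 95% interval 51.6 to 97.9), and Prtn3 the other 2. The articular share of 56.6% lies inside that interval, so a different stage mix was not detectable at this depth. Counts depend on transcript length, which was not at hand, so levels are not ranked between genes.

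**Figure D2:**
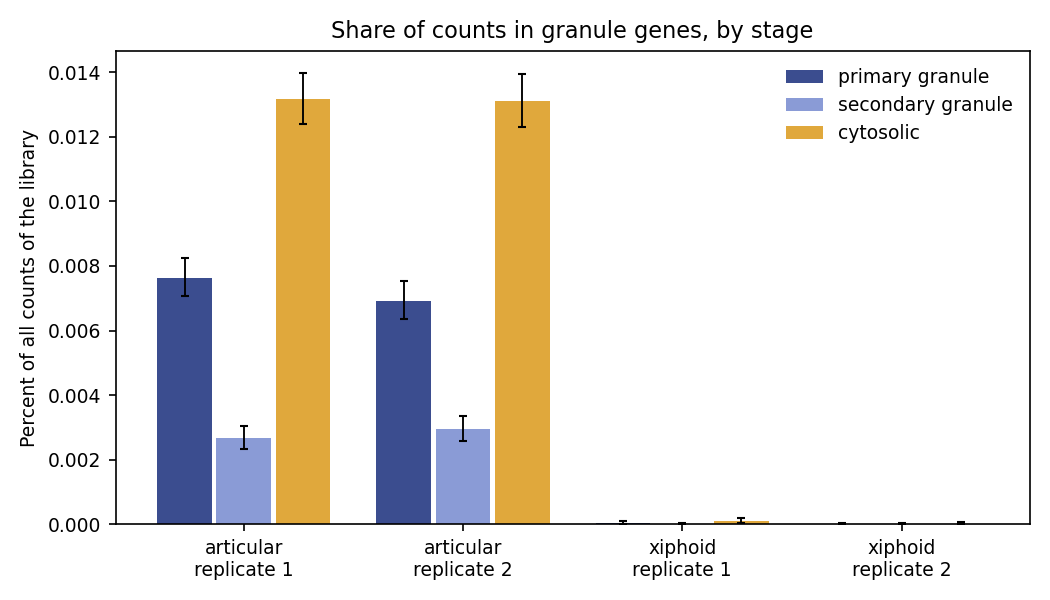
Percent of all counts of each library in the 5 primary granule genes, the 2 secondary granule genes and the 2 cytosolic genes; error bars are exact binomial 95% intervals for counting error. The 2 articular libraries have alike bars (0.00764% and 0.00692% for primary, 0.00267% and 0.00295% for secondary, 0.0132% and 0.0131% for cytosolic), and the xiphoid bars are near 0.

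Few genes in the table were so one-sided. A total of 35 of 13554 genes (0.258%) had at least 20 counts in each articular library and none in either xiphoid library, and 6 of the 35 were members of the set: Np4, Defa5, Camp, Ngp, Ctsg and Elane. The limit of 20 counts was chosen after the values were seen. Among the other 29 were RatNP-3b, Mmp8 and Gfi1 of the neutrophil line, the B cell and B cell precursor genes Vpreb1, Vpreb2, Igll1, Dntt and Cd79b, the eosinophil granule gene Prg2, and the bone genes Atp6v0d2 of osteoclasts and Phex of osteoblasts and osteocytes. The 29 were not all blood or bone genes: Hhip, Cryba4, Clstn2, Hoxc11 and Grin1, which are in none of the lists used here, were also among them. The 6 genes outside the set whose levels over the 4 libraries lay nearest to the set's median profile (Euclidean distance between centred log2 CPM) were RatNP-3b (distance 0.199), Phex (0.282), Prg2 (0.369), Bglap (0.457), Adm2 (0.474) and Atp6v0d2 (0.482). Bglap encodes osteocalcin, the bone matrix protein of osteoblasts, and Adm2 a vasoactive peptide. With 4 libraries in 2 groups, this distance orders genes mostly by the size of their articular excess.

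Other genes of primary granules moved far less. Of 13 tested, 2 were called with an articular excess, 2 with a xiphoid excess, and 9 did not pass. Articular calls were 25.0% and xiphoid calls 24.5% over all genes tested. The median log2 fold change of the list was 0.23, beside -0.02 over all genes tested. Most genes of the list encode lysosomal proteins that many cells make. Lyz2, the lysozyme of neutrophils and macrophages, was at 345 and 411 CPM in articular cartilage against 150 and 172 CPM (2.35-fold, edgeR adjusted p = 3.84e-05). Nkg7, a granule membrane protein of cytotoxic cells, had 28 counts in each articular library and none in xiphoid cartilage (at least 18.3-fold, edgeR adjusted p = 1.6e-04). Ctsb, a lysosomal cysteine protease, was 2.18-fold higher in xiphoid cartilage (edgeR adjusted p = 8.61e-05), and Man2b1, a lysosomal mannosidase, 1.6-fold higher there (edgeR adjusted p = 0.00283).

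Mpo, the gene for myeloperoxidase and the classical marker of primary granules, did not follow Elane and Ctsg. It was at 14.1 and 13.9 CPM in articular cartilage and at 9.29 and 12.6 CPM in xiphoid cartilage (log2 fold change 0.36, SE 0.24, edgeR adjusted p = 0.24). The groups did not overlap, but the difference was small and did not pass. The Mpo row, like that of Ctsg, also carries an assembled transcript, whose share of the counts was not tested. Ctsc, the protease that activates the granule serine proteases, was at 11.4 and 11.1 CPM against 7.53 and 7.54 CPM and did not pass (edgeR adjusted p = 0.0782).

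Other genes of secondary and tertiary granules were split. Of 19 tested, 9 were called with an articular excess, 4 with a xiphoid excess, and 6 did not pass (median log2 fold change 0.68). These counts stand beside 25.0% articular and 24.5% xiphoid calls over all genes tested. Mmp9, a gelatinase of tertiary granules that osteoclasts also make in quantity, had 5035 and 5263 counts against 1 and 1, a ratio of 5040 with a 95% counting interval of 1395 to 41620 (edgeR adjusted p = 6.89e-11). Fcnb, a ficolin of marrow myeloid cells, had 120 and 95 counts against 2 and 1, a ratio of 70.2 (23.7 to 343, edgeR adjusted p = 7.86e-07). Mmp8, the neutrophil collagenase, had 25 and 32 counts against none (at least 18.6-fold, edgeR adjusted p = 1.75e-04). Slpi, an inhibitor of elastase and cathepsin G, was at 35.9 and 42.8 CPM against 2.12 and 1.78 CPM (19.9-fold, edgeR adjusted p = 6.54e-08).

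Lcn2 went the other way. It encodes lipocalin 2, a siderophore-binding protein first found in specific granules and also made by chondrocytes, adipocytes and epithelia. It was at 15.2 and 16.8 CPM in articular cartilage and at 77.6 and 97.5 CPM in xiphoid cartilage, 5.47-fold higher in xiphoid cartilage (log2 fold change -2.45, SE 0.18, edgeR adjusted p = 4.67e-07). Chi3l1, a chitinase-like protein of specific granules and of chondrocytes, was 1.96-fold higher in xiphoid cartilage (edgeR adjusted p = 1.83e-04).

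**Figure D3:**
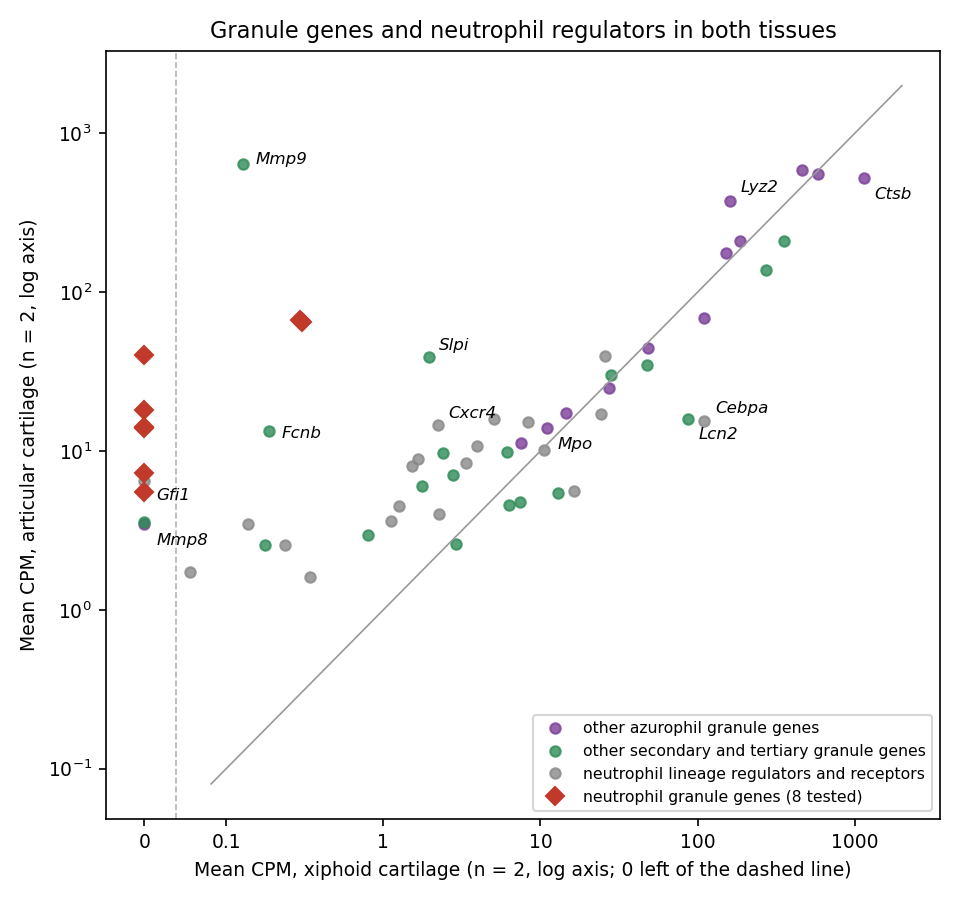
Mean CPM of each tested gene in xiphoid (x) and articular (y) cartilage, n = 2 libraries each, on log axes, with genes without a xiphoid count left of the dashed line and equal levels on the diagonal. The 8 tested neutrophil granule genes (diamonds) sit at 0 or near 0.3 CPM in xiphoid cartilage, while Mpo lies near the diagonal and Lcn2 below it.

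Most tested regulators and receptors of the neutrophil line were higher in articular cartilage, but the summed share of the list was not. Of 20 tested, 14 were called with an articular excess, beside 25.0% of all genes tested. A further 2 had a xiphoid excess, and 4 did not pass (median log2 fold change 1.65). The list took 0.01985% and 0.02036% of articular counts against 0.02324% and 0.02088% of xiphoid counts. Cebpa alone held 985 and 771 of the 1960 and 1535 xiphoid counts. Cxcr2, a chemokine receptor, had 4 and 6 counts in each tissue and was not tested. Gfi1, a repressor needed for granulocyte maturation, had 59 and 46 counts against none (at least 34.3-fold, edgeR adjusted p = 1.86e-05). Cxcr4, the receptor that holds neutrophils in the marrow, was at 11.1 and 18.2 CPM against 2.23 and 2.19 CPM (6.58-fold, edgeR adjusted p = 4.33e-05), and Itgal, a leukocyte integrin chain, was 5.37-fold higher (edgeR adjusted p = 1.2e-04). Cebpe, the factor of the secondary granule stage, had 7 and 2 counts against none and was not tested. Cebpa, which starts the granulocyte programme and is also a master factor of fat cells, was at 16.0 and 14.9 CPM against 115.8 and 105.6 CPM, 7.15-fold higher in xiphoid cartilage (edgeR adjusted p = 5.83e-08).

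Receptors and inhibitors of the granule proteins leaned to xiphoid cartilage. Of 13 tested, 2 were called with an articular excess, 6 with a xiphoid excess, and 5 did not pass (median log2 fold change -0.60). Over all genes tested, 25.0% had an articular call and 24.5% a xiphoid call. The protease inhibitors A2m and Serpina1, the second the main plasma inhibitor of neutrophil elastase, were 4.42-fold and 3.97-fold higher in xiphoid cartilage (edgeR adjusted p = 3.14e-07 and 2.47e-06). Cd36, a scavenger receptor that binds calprotectin and is abundant in fat cells, was 22.2-fold higher in xiphoid cartilage (edgeR adjusted p = 3.16e-09). The alarmin receptors did not pass: Tlr4 was at 4.55 and 3.98 CPM against 2.94 and 4.80 CPM (edgeR adjusted p = 0.768), and Ager at 0.957 and 1.16 CPM against 3.29 and 2.06 CPM (edgeR adjusted p = 0.0523).

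The nearest genes with a row on each side of the granule genes differed in both directions. Outside the set, 12 neighbours had a row and 8 were tested: 5 were called with an articular excess, beside 25.0% of all genes tested, 1 with a xiphoid excess, and 2 did not pass. Elane and Prtn3 are adjacent in the RefSeq table, and the gene on the other side of Elane is Cfd, the complement protease adipsin of fat cells. Cfd was at 38.5 and 32.0 CPM in articular cartilage and at 800 and 639 CPM in xiphoid cartilage, 20.4-fold higher in xiphoid cartilage (edgeR adjusted p = 3.83e-09). On the other side of Prtn3, Plppr3, a membrane protein studied in neurons, had 18 and 14 counts against none (at least 10.4-fold, edgeR adjusted p = 0.00112). On one side of Ctsg, the adjacent mast cell protease gene Mcpt10 had 78 and 58 counts against 0 and 2. That is a ratio of 66.6 (95% counting interval 18.1 to 555, edgeR adjusted p = 1.48e-05). The Mcpt10 log2 fold change of 5.88 became 4.87 without xiphoid replicate 1, and 9.12 without xiphoid replicate 2, where no xiphoid count remained. Of the genes beside Camp, Nme6 did not pass (edgeR adjusted p = 0.718) and Cdc25a, a cell cycle phosphatase, was 2.77-fold higher in articular cartilage (edgeR adjusted p = 1.79e-04). Ptpn23, beside Ngp, was 1.47-fold higher in articular cartilage (edgeR adjusted p = 0.0141), a call that was lost without xiphoid replicate 1 (0.142) or 2 (0.0589). Atp7b, a copper transporter beside Defa5 with 17 genes without a row between, had a 13.4-fold articular excess (log2 fold change 3.74, or 4.38 without xiphoid replicate 1, edgeR adjusted p = 4.82e-06). S100a11, the row nearest to S100a9 on its far side, lay beyond 84 genes without a row. It did not pass (log2 fold change -0.24, edgeR adjusted p = 0.355), but was called for xiphoid cartilage with the replicate block (-0.28, edgeR adjusted p = 0.0142). Without articular replicate 2 its log2 fold change was -0.63. Gzmb, Kif9 and S100a7a had too few counts to be tested, and 27 genes without a row lay between Ctsg and Gzmb. No source used here states whether strand was used in counting, and reads from genes that overlap cannot then be separated.

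Markers of other marrow and bone cells were higher in the same articular libraries. Of 17 tested erythroid markers, 16 were higher in articular cartilage, and the list took 0.854% and 0.878% of articular counts against 0.0842% and 0.0890% of xiphoid counts. Of 15 tested B cell markers, 13 were higher in articular cartilage, and 7 of the 16 with a row had no xiphoid count. The summed B cell list was lower in articular (0.0571% and 0.0592%) than in xiphoid cartilage (0.0829% and 0.0876%) because Cd24, a surface protein of many cell types, made up most of it. All 5 tested eosinophil markers and all 11 tested osteoclast markers were higher in articular cartilage. These list counts stand beside 25.0% of all genes tested with an articular call. Genes with 0 or 1 xiphoid counts passed the low-count filter through their articular libraries alone, so their calls describe and add no support. Among them were Prg2, Epx and Gata1 of the eosinophil list and Atp6v0d2 of the osteoclast list. Eosinophil markers took 0.00499% and 0.00482% of counts against 0.000296% and 0.000327%, and osteoclast markers 0.208% and 0.217% against 0.0231% and 0.0217%. The part of these cells in the granule gene result was not tested.

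Other cell types that share granule genes were measured too. Their list counts stand beside 25.0% articular and 24.5% xiphoid calls over all genes tested. Macrophages and monocytes can make S100a8, S100a9 and Lyz2: of 14 tested markers 4 were called with an articular excess, 2 with a xiphoid excess, and 8 did not pass, with sums of 0.0555% and 0.0625% against 0.0326% and 0.0355%. The 4 articular calls were Lyz2, Csf1r, the receptor for the macrophage growth factor (2.49-fold, edgeR adjusted p = 7.47e-05), Cd68, a lysosomal protein of macrophages and osteoclasts (7.29-fold, edgeR adjusted p = 8.2e-05), and Mpeg1, the pore-forming perforin-2 (3.77-fold, edgeR adjusted p = 8.79e-05). The Cd68 log2 fold change of 2.87 became 2.26 without xiphoid replicate 1 and 3.82 without xiphoid replicate 2. Cd14, a monocyte receptor, was 2.77-fold higher in xiphoid cartilage (edgeR adjusted p = 1.55e-04). The part of macrophages in the S100a8 and S100a9 result was not tested. Mast cells can make Ctsg: of 9 tested mast cell and basophil markers 6 had a xiphoid excess, and Mcpt10 and the basophil protease gene Mcpt8 an articular one. Kit, the stem cell factor receptor, was 3.47-fold higher in xiphoid cartilage (edgeR adjusted p = 2.66e-05). The part of mast cells and basophils in the Ctsg counts was not tested. The 2 tested platelet markers did not pass.

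Globin transcripts, which mark red cells, were set beside the granule genes. Hbb, Hbb-b1, Hba1 and Hba2 together had 68506 and 65212 articular counts against 5963 and 5647 xiphoid counts. Per 1000 globin counts, the granule genes had 28.8 counts (95% interval 27.5 to 30.1) and 27.45 counts (26.2 to 28.8) in articular cartilage. In xiphoid cartilage they had 1.845 (0.92 to 3.30) and 0.177 (0.0045 to 0.987). The xiphoid libraries held red cell transcripts but far fewer granule gene counts for each of them. These xiphoid ratios rest on 11 and 1 granule gene counts, and their intervals overlap only narrowly. The part of blood in the granule gene result was not tested. The groups did not overlap, and with 2 libraries against 2 an exact permutation test cannot reach a p under 0.05.

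**Figure D4:**
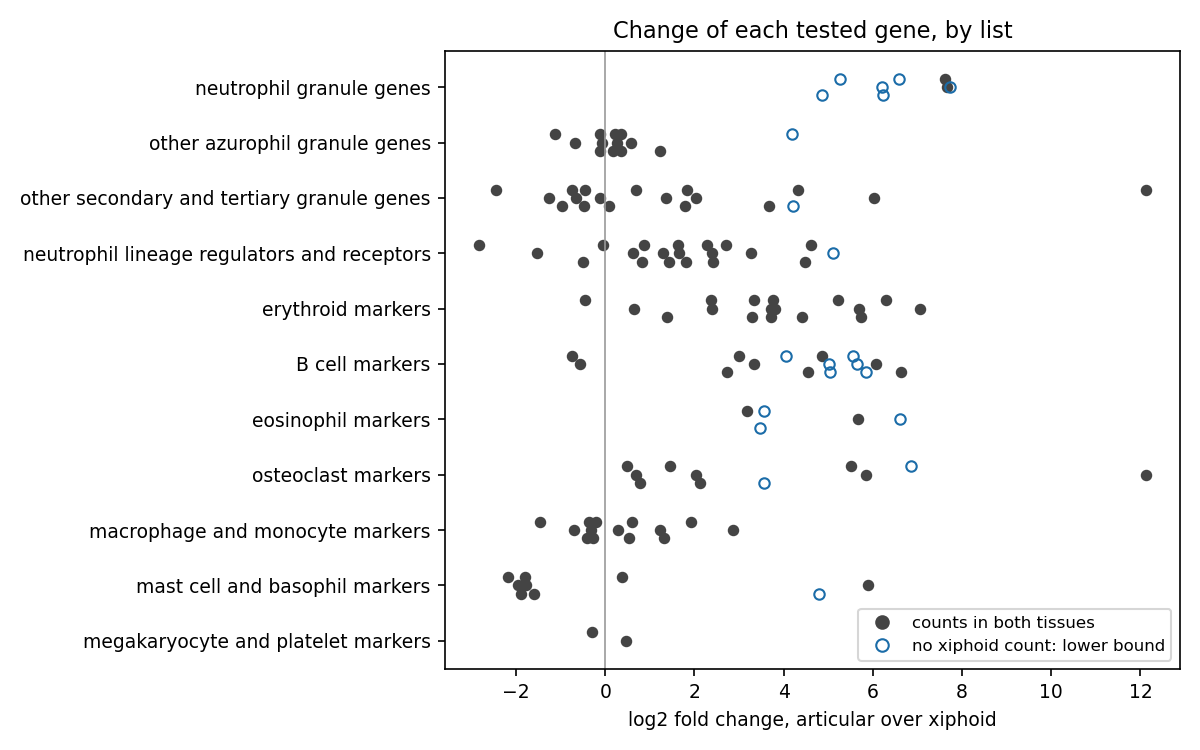
The log2 fold change (articular over xiphoid) of each tested gene in the neutrophil granule set and in 10 lists; open circles are genes without a xiphoid count, drawn at their lower bound against 3 counts, and filled circles are fitted values. Every neutrophil granule gene lies at or to the right of the bound of Elane (29.0-fold), erythroid, B cell, eosinophil and osteoclast markers lie mostly to the right of 0, and mast cell markers mostly to the left.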

How the data were processed

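The authors deposited 1 table of estimated counts per gene (expected counts, unnormalized) for 2 articular and 2 xiphoid cartilage libraries. The submitters' processing notes name build rn6 and the tools RSEM 1.2.12, Bowtie2 2.2.6, StringTie 1.2.1 and HISAT2 2.0.4, without their roles. The expected counts, of which 3.91% of values were not whole, were rounded, filtered with filterByExpr (11202 genes tested, 2352 not), scaled by TMM and tested with edgeR 4.0.16 (glmQLFit, robust; glmQLFTest, 2-sided) in R 4.3.3 with tissue as the only term. The fit had 2 residual degrees of freedom and a median of 10.0 prior degrees of freedom, borrowed from the spread of all genes tested. The procedure was tested on simulated data.

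A gene without a count was given a fold bound against a floor of 3 counts summed over that tissue's libraries. Ratios of counts carry exact conditional binomial 95% intervals. Sequences are from RefSeq (GRCr8), with all 9 genes matched by Entrez identifier and neighbours read from the same table.

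The members and lists were chosen with earlier results of these data known. The genes eligible for naming were the members, their neighbours with a row, up to 4 genes per list with the lowest adjusted p, and the 6 nearest profiles. Mpo, Ctsc, Mmp8, Chi3l1, Cebpe, Cxcr2, Tlr4, Ager and Cd14 were chosen after their values were seen. So were the other S100 genes, the 35 one-sided genes and the globin ratio. Levels per coding length had been planned and were not computed, because lengths were not at hand. Alternatives were library sizes alone, RLE factors, DESeq2 1.42.0, limma-voom (limma 3.58.1), all genes unfiltered, a replicate block, unrounded counts, leaving out each library, and another denominator for shares.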

Additional observations from a re-analysis of the deposited data

How the results depend on the processing

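All 8 tested neutrophil granule genes were higher in articular cartilage under each of the 11 alternatives run (RLE factors, library sizes alone, no filter, DESeq2, limma-voom, replicate block, unrounded counts and each library left out), and Prtn3 was called in 3 of the 4 settings that admitted it. The 8 tested genes had 5 or fewer xiphoid counts each and passed the filter through their articular libraries alone. The alternatives could hardly give another direction, so their outcome for these genes adds no support. The replicate numbers of the labels are not said to pair samples. Over 11202 genes the replicate differences of the tissues correlated with r = 0.24, where genes are not independent. The replicate block gave 3344 articular and 3484 xiphoid calls, against 2800 and 2745 without it. The block gave 5 articular calls among other azurophil genes, 2 xiphoid calls among B cell markers, 1 articular call among the other S100 genes and 1 among platelet markers, and dropping the filter also gave 1 of the last. Leaving out 1 library gave 2 to 4 articular calls among azurophil genes, 1 to 2 among receptors and inhibitors and 0 to 1 among the other S100 genes, and xiphoid calls of 0 to 1 among erythroid, 1 to 2 among B cell and 1 to 3 among macrophage markers. With 1 library left out, the log2 fold change ran from -0.44 to 0.13 for Nme6, -0.63 to 0.065 for S100a11 and -0.80 to 0.094 for Selp (0.087 without articular replicate 1), so each changed sign. None had passed in the reported fit, but S100a11 passed at -0.63 (without articular replicate 2, adjusted p = 0.00146) and under the replicate block (-0.28, adjusted p = 0.0142). The lone library left in a tissue is assumed to vary like the other tissue. The share of counts in the granule genes was 0.0263% and 0.0254% in articular cartilage with Col2a1 and ribosomal RNA rows out of the denominator, since fewer counts then divide the same number. The cause of the other changes was not tested. With 5 or fewer xiphoid counts per gene, depth limits each fold to a bound or a wide interval.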
